A study of Mus musculus with 12 samples.

Results

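The nicotinic acetylcholine receptors are the target family of the neonicotinoid insecticides, and 10 mouse genes of this family were followed through embryonic testis after gestational exposure to thiacloprid (*thia*). The members were chosen by symbol from the count tables. They are the muscle subunits Chrna1, Chrnb1, Chrnd and Chrng and the neuronal subunits Chrna3, Chrna4, Chrna5, Chrna7, Chrnb2 and Chrnb4. All 10 had a row in each table, out of 35976 gene symbols.

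The data are RNA-seq read counts from E15.5 testes of outbred Swiss (RjOrl) mice, in 4 groups of 3 libraries. Each library was made from a pool of testes of 3 embryos. F1 *thia* embryos were carried by dams that received 6 mg/kg/day of thiacloprid by gavage from E6.5 to E15.5, and F1 control embryos by dams of dose 0, which the study's methods give as oil only. F3 *thia* and F3 control embryos descended from such dams through 2 further generations of males mated with unexposed, unrelated females, so the F3 embryos themselves met no compound. No allele or transgene is involved. The study's methods describe 2 independent rounds of treatment and males of different litters in each assay, but not how litters or rounds were divided among these pools, and p-values therefore measure the spread between the pools. The 12 libraries held 25081647 to 68996146 assigned reads. Levels are given as CPM, the count scaled to 1000000 reads of library size.

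A nicotinic receptor is a ring of subunits around a cation channel that acetylcholine opens. In embryonic muscle the ring holds the subunits encoded by Chrna1, Chrnb1, Chrnd and Chrng, and after birth the product of Chrne takes the place of that of Chrng. Neurons build rings from Chrna4 and Chrnb2 products, the common form of the brain, or from those of Chrna3 and Chrnb4, with or without that of Chrna5, the form of autonomic ganglia, while the product of Chrna7 can form a ring alone. Neonicotinoids bind where acetylcholine does and prefer the insect receptors to the vertebrate ones. The testis at this stage holds tubules of Sertoli and germ cells, fetal Leydig cells, vessels and nerve fibres, and the RNA of a pool mixes all of them. In such bulk samples, fewer cells of one type and less RNA in each cell cannot be told apart.

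Positions are those of GRCm38 in the GENCODE M21 annotation. Chrnd (chromosome 1, 87190607 to 87200070, plus strand) and Chrng (chromosome 1, 87204657 to 87212694, plus strand) are neighbours with 4586 bases between them. Chrna5 (chromosome 9, 54980880 to 55007779, plus strand), Chrna3 (chromosome 9, 55010111 to 55026562, minus strand) and Chrnb4 (chromosome 9, 55028154 to 55048779, minus strand) form a second cluster, with 2331 and 1591 bases between them. Chrna1 lies on chromosome 2 (73563215 to 73580338, minus strand), as does Chrna4 (181018380 to 181043546, minus strand). The others are Chrnb1 on chromosome 11 (69784036 to 69795943, minus strand), Chrnb2 on chromosome 3 (89746195 to 89764632, minus strand) and Chrna7 on chromosome 7 (63098692 to 63212569, minus strand). Reads are counted over the exons of each gene. Some members lie over other genes. Exons of Chrnb2 overlap those of Adar, an RNA-editing enzyme on the opposite strand, and in RefSeq's extents this overlap is 8 bases. RefSeq also extends Chrna5 by 3641 bases beyond the GENCODE end, into 1304 bases of Chrna3 on the opposite strand. The libraries were stranded, but the strand setting of the counting step is not given in the sources used here, so counts in these overlaps are uncertain.

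Per exon length, the subunits fell into an upper set of 5 genes and a lower set of 5. Level per length is given here as RPKM, the CPM divided by the exon length in kilobases, which allows genes to be compared. The highest was Chrnb1, the muscle beta subunit, at 2.83 ± 0.431 RPKM (SD over the 12 libraries, range 2.06 to 3.42). Chrna5, an accessory neuronal subunit, followed at 2.47 ± 0.406 RPKM, then Chrna4 at 1.64 ± 0.358 RPKM, Chrna7 at 1.57 ± 0.271 RPKM and Chrnb4 at 1.00 ± 0.267 RPKM. The neighbours in this order were not always apart. Chrnb1 was above Chrna5 in 10 of 12 libraries and Chrna5 above Chrna4 in 11, but Chrna4 was above Chrna7 in only 5 of 12, in spite of its higher mean. Chrna7 was above Chrnb4, and Chrnb4 above every subunit of the lower set, in all 12. The length taken for Chrna5 ends at the shorter gene model, so its place in the order would fall if the counted model were longer. Conversely, the GENCODE extents reach 7253 bases beyond RefSeq's for Chrnb2, 3931 for Chrna4 and 1154 for Chrng, so these genes could stand higher on shorter counted models.

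The lower set held Chrnd at 0.209 ± 0.0847 RPKM, Chrng at 0.189 ± 0.111, Chrna1 at 0.165 ± 0.105, Chrnb2 at 0.158 ± 0.0601 and Chrna3 at 0.0377 ± 0.0178 RPKM. Between the first 4 of these there was no settled order. Chrnd was above Chrng in 8 of 12 libraries, Chrng above Chrna1 in 7 and Chrna1 above Chrnb2 in 5. Chrna3 was below Chrnb2 in all 12. Read counts show how thin this set is, with 2 to 18 reads per library for Chrna3, 9 to 53 for Chrnd, 10 to 79 for Chrna1, 11 to 57 for Chrng and 20 to 78 for Chrnb2, against 172 to 452 for Chrnb1 and 159 to 585 for Chrna4. Of the 4 muscle subunits that build the embryonic muscle receptor, 3 were thus in the lower set while Chrnb1 was at the top of all 10. Of the usual neuronal partners, Chrna4 lay above Chrnb2 and Chrnb4 above Chrna3 in every library.

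**Figure D1:**
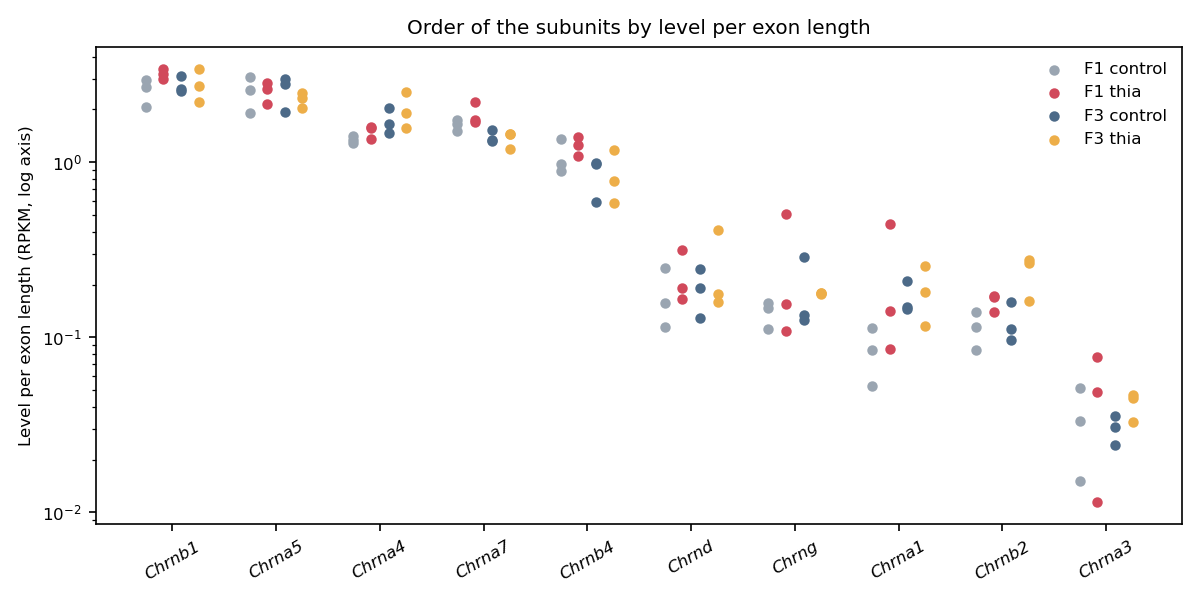
Level per exon length of the 10 subunits on a log axis (RPKM), ordered by their mean over 12 libraries; each point is 1 pool and colours give the group. Chrnb1, Chrna5, Chrna4, Chrna7 and Chrnb4 form the upper set, from 2.83 to 1.00 RPKM on average, and Chrna3 is lowest at 0.0377 RPKM.

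The first question was whether direct exposure in utero altered the receptor subunits in F1 testis. None of the 10 passed the threshold of the comparison, a Benjamini-Hochberg adjusted p under 0.15 in edgeR's quasi-likelihood test (0 of 10, against 0.0105% of the 19137 genes tested). At an unadjusted p under 0.05 there was 1 member, Chrna1, where 8.76% of all genes were. DESeq2 called 199 genes over the whole table, but 0 of the 9 members to which it gave an adjusted p. All 10 fold changes were nevertheless positive, with a median log2 fold change of 0.34 against 0.01 over all genes tested, of which 52% were positive. In 9 of 10 members the sign remained positive without *thia* replicate 2, the exception being Chrng, and the median then was 0.14. The groups did not overlap in 2 of 10 members, Chrnb1 and Chrnb2, where 6.55% of all genes had every *thia* pool above every control pool.

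Chrna1 encodes the muscle subunit that carries most of the acetylcholine site. Its level in F1 control pools was 0.497, 0.230 and 0.371 CPM. In F1 *thia* pools it was 0.374, 1.96 and 0.624 CPM. One *thia* pool, replicate 2, stood far above the others, and another lay within the control range. The log2 fold change was 1.42 ± 0.586 (SE, 95% interval 0.13 to 2.72, adjusted p = 0.556 in edgeR). It came to 0.49 ± 0.447 without *thia* replicate 2.

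Chrng encodes the gamma subunit of the embryonic muscle receptor. Control pools of F1 were at 0.434, 0.312 and 0.408 CPM, and *thia* pools at 0.430, 1.41 and 0.304 CPM. The same replicate 2 was the one high pool, and the other two *thia* pools lay within or just below the control range. The log2 fold change of 0.88 ± 0.543 (95% interval -0.33 to 2.08, adjusted p = 0.642 in edgeR) became -0.04 ± 0.403 without that pool. Chrnd, which encodes the delta subunit, was at 0.724, 0.459 and 0.334 CPM in controls and 0.561, 0.917 and 0.487 CPM in *thia*, again highest in replicate 2 but with overlapping groups. Its log2 fold change was 0.34 ± 0.374, and 0.03 ± 0.404 without replicate 2.

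Skeletal muscle genes were also high in F1 *thia* replicate 2. The summed level of 18 skeletal muscle markers, all of them detected, was 88.9 to 159 CPM in F1 control pools and 123, 733 and 96.5 CPM in the *thia* pools. Replicate 2 was the highest of all 12 libraries for 15 of the 18 markers. Myod1, a muscle determination factor, was at 4.49 CPM there and at 0.185 to 1.41 CPM in F1 controls. Acta1, skeletal actin, was at 156 CPM there and at 2.15 to 20.4 CPM in F1 controls. Chrnb1 did not follow this pattern, since its replicate 2 was the lowest of the F1 *thia* pools. Among the other F1 pools, Chrna1 was at 0.624 CPM in *thia* replicate 3 (sum 96.5 CPM) and at 0.497 CPM in control replicate 1 (sum 159 CPM). Whether muscle tissue in a pool accounts for the levels of Chrna1, Chrnd and Chrng was not tested.

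**Figure D2:**
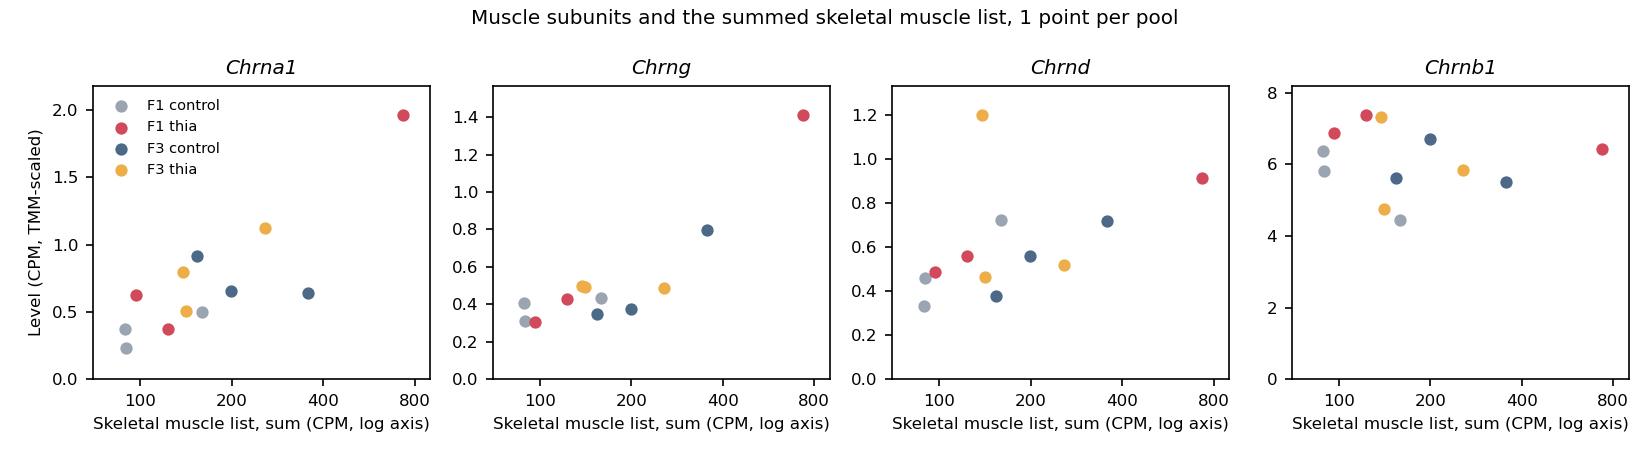
Level of each muscle subunit (CPM, vertical axis) against the summed level of 18 skeletal muscle markers (CPM, log axis) in 12 pools coloured by group. The pool F1 *thia* 2 lies at 733 CPM on the horizontal axis and is highest for Chrna1 (1.96 CPM) and Chrng (1.41 CPM), while Chrnb1 is at 6.44 CPM there, inside its range.

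The promoters of Chrna1 and Chrng are shown because both were highest in F1 *thia* replicate 2, a choice made from these data. Chrna7 and Chrnb4 were highest in that pool as well. The windows were read for 1 form of E-box, the short motifs that the family of myogenic factors binds. Both strands were covered by searching CAGCTG, a palindromic E-box, in the 250 bases before each start in RefSeq's GRCm38.p6 table. There 9 of the 10 members had an entry, and the muscle subunit Chrnd had none. Chrna1 and Chrng each had 2 copies and the neuronal Chrnb4 had 1. The windows of the muscle subunit Chrnb1 and of Chrna3, Chrna4, Chrna5, Chrna7 and Chrnb2 had 0. Other forms of E-box were not counted, so a window without CAGCTG may still hold an E-box. Of all 32851 windows, 13% held at least 1 copy and 1.26% at least 2. Below are the 200 bases that end 11 bases before the start, written 5′ to 3′ on the gene's own strand with CAGCTG in capitals, for Chrna1 (chr2:73580349-73580548, minus strand), for Chrng (chr1:87205601-87205800, plus strand) and, as a neuronal subunit without the motif, for Chrnb2 (chr3:89764643-89764842, minus strand).
Chrna1: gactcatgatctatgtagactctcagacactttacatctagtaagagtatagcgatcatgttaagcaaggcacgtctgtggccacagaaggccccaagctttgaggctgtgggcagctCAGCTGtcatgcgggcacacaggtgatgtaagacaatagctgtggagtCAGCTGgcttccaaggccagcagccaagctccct
Chrng: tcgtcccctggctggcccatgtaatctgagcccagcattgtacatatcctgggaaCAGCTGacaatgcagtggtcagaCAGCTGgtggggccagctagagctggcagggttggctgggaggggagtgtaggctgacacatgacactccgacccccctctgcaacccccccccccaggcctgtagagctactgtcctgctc
Chrnb2: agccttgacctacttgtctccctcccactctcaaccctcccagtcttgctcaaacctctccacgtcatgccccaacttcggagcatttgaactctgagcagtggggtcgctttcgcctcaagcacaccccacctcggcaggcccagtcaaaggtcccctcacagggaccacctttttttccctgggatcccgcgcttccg
The copies start at -92 and -44 in Chrna1 and at -155 and -132 in Chrng, where -1 is the base just before the start. For Chrng the window lies before RefSeq's start, 87205811, but inside the GENCODE extent, which begins at 87204657. A match of letters describes the window and is not a measured binding site. Whether myogenic factors act on these genes was not tested.

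Chrnb1, the beta subunit of the muscle receptor, was the most even of the muscle set. F1 control pools were at 4.45, 5.81 and 6.37 CPM and F1 *thia* pools at 7.37, 6.44 and 6.88 CPM. Every *thia* pool was above every control pool, although the nearest pair was only a narrow step apart. The log2 fold change was 0.34 ± 0.170 (95% interval -0.04 to 0.71, adjusted p = 0.59 in edgeR), and 0.38 ± 0.193 without *thia* replicate 2.

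Chrnb2, the main beta subunit of neuronal receptors, was the neuronal member whose F1 groups were apart. Control pools had 0.538, 0.738 and 0.889 CPM and *thia* pools 0.898, 1.09 and 1.10 CPM. The highest control nearly reached the lowest *thia* pool. The log2 fold change was 0.54 ± 0.276 (95% interval -0.07 to 1.16, adjusted p = 0.593 in edgeR). Adar, the overlapping neighbour, was at 32.7 to 35.5 CPM in F1 controls and 31.9 to 35.8 CPM in F1 *thia*.

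The other neuronal subunits overlapped between the F1 groups. Chrna4, the principal alpha partner of Chrnb2, was at 6.06, 6.45 and 5.89 CPM in controls and 6.18, 7.24 and 7.12 CPM in *thia*, a log2 fold change of 0.17 ± 0.143. Chrna7, which forms the calcium-permeable homomeric receptor, was at 3.14, 3.64 and 3.45 CPM against 3.52, 4.61 and 3.62 CPM, a log2 fold change of 0.21 ± 0.181. Replicate 2 was again the highest *thia* pool in both. In the ganglionic set, Chrnb4 was at 3.62, 5.02 and 3.30 CPM in controls and 4.01, 5.20 and 4.67 CPM in *thia*, and Chrna5 at 3.56, 4.85 and 5.74 CPM against 5.33, 4.01 and 4.90 CPM. Their log2 fold changes were 0.22 ± 0.201 and 0.03 ± 0.206. Chrna3 rested on few reads, with 0.145, 0.0656 and 0.222 CPM in controls and 0.337, 0.0496 and 0.213 CPM in *thia*, a log2 fold change of 0.67 ± 0.647. For Chrna4 the interval of the log2 difference was -0.15 to 0.49 and for Chrna5 -0.42 to 0.49, while the interval of Chrna3 ran from -0.77 to 2.11.

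Marker sums of some other cell types also stood apart between the F1 groups, with no test made. The summed level of 6 macrophage markers was 53.7 to 63.2 CPM in F1 controls and 65.8 to 81.1 CPM in F1 *thia*. That of 6 germ cell markers was 778 to 1074 CPM against 648 to 777 CPM. The germ cell sums were only just apart, at 778 CPM in control replicate 1 and 777 CPM in *thia* replicate 1. Other sums overlapped, such as that of Sertoli cells (1033 to 1175 CPM against 1029 to 1357 CPM). The 12 markers of sympathetic and autonomic neurons, cells that carry Chrna3, Chrnb4 and Chrna7, summed to 35.8 to 45.0 CPM in controls and 44.9 to 50.3 CPM in *thia*. Enzymes of noradrenaline synthesis that mark sympathetic neurons stood in opposite orders, Th being at 0.593 to 0.656 CPM in controls and 0.517 to 0.570 CPM in *thia*, and Dbh at 0.131 to 0.186 CPM and 0.243 to 0.426 CPM. The part of these cells in the subunits' levels was not tested.

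**Figure D3:**
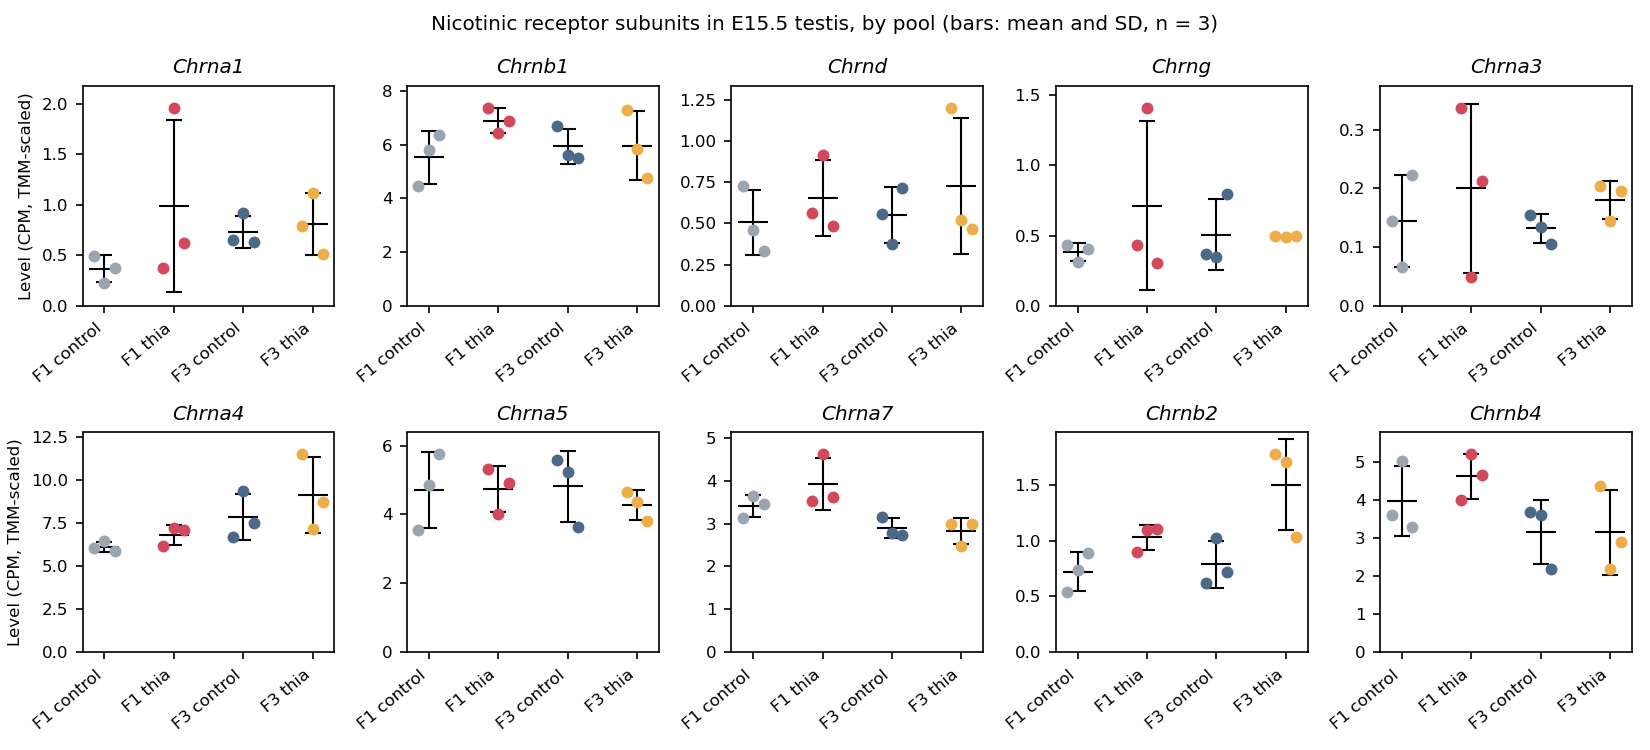
Level of each subunit in every pool (CPM after TMM scaling, axes from 0), with the mean and SD of 3 pools per group. F1 *thia* replicate 2 is the isolated high point for Chrna1 (1.96 CPM) and Chrng (1.41 CPM), and the F3 *thia* pools of Chrnb2 (1.03 to 1.77 CPM) lie above the F3 controls (0.620 to 1.02 CPM).

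The second question was whether the subunits differed in F3 testis, in descendants that were not exposed themselves. The threshold here was an adjusted p under 0.1, and 0 of the 9 members tested passed it, as did 0% of the 18539 genes tested. Chrna3 was too low to be tested. At an unadjusted p under 0.05 there was again 1 member, now Chrnb2, where 21.1% of all genes were. DESeq2 called 2288 genes over the whole table, but 0 of the 5 members to which it gave an adjusted p. It gave none to the other 5, Chrnb2 among them. Fold changes were positive in 5 of 9 members, with a median log2 fold change of 0.00 against 0.00 over all genes. The groups did not overlap in 1 of 9 members, where 13.4% of all genes had every *thia* pool above every control pool.

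That member was Chrnb2. F3 control pools were at 0.620, 1.02 and 0.717 CPM, and F3 *thia* pools at 1.77, 1.70 and 1.03 CPM. Replicates 1 and 2 of *thia* were well above the controls, while replicate 3 was barely above the highest control. The log2 fold change was 0.91 ± 0.307 (SE, 95% interval 0.19 to 1.63, unadjusted p = 0.0196, adjusted p = 0.163, edgeR). Chrnb2 passed the threshold in a fit of all 12 libraries (adjusted p = 0.0904) and in no other of its alternatives, over which the adjusted p ran up to 0.444. Adar, on the opposite strand, had 25.2, 28.4 and 25 CPM in F3 controls and 33.3, 35.3 and 32.9 CPM in F3 *thia*, a log2 fold change of 0.37 ± 0.0836 (adjusted p = 0.105). Chrnb2 and Adar share 8 bases in RefSeq's extents. Any reads of Adar counted to Chrnb2 over these bases cannot be told apart from those of Chrnb2.

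Several marker lists also stood higher in F3 *thia*. The sum of 4 endothelial markers was 131 to 152 CPM in controls and 203 to 243 CPM in *thia*, that of 6 fetal Leydig markers 2190 to 3619 CPM against 3840 to 6968 CPM, and that of 6 Schwann cell and neural crest markers at most 19.6 CPM against 20.4 to 27.1 CPM. The neuronal list overlapped, at 47.5 to 55.9 CPM in controls and 46.6 to 51.3 CPM in *thia*. These values stand beside the level of Chrnb2, and their part in it was not tested.

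Chrna4, the partner of Chrnb2, was at 6.73, 9.35 and 7.54 CPM in F3 controls and 11.5, 7.16 and 8.76 CPM in F3 *thia*. The highest pool was *thia* replicate 1, the pool in which Chrnb2 was highest too, but the groups overlapped (log2 fold change 0.21 ± 0.209, 95% interval -0.28 to 0.70). Chrna7 was at 3.16, 2.78 and 2.74 CPM against 3.00, 2.47 and 2.99 CPM, with a log2 fold change of -0.03 ± 0.177 and an interval of -0.45 to 0.38. This was the narrowest interval of the 9 members tested in F3.

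In the ganglionic cluster, F3 control pools had 3.69, 3.61 and 2.20 CPM of Chrnb4 and *thia* pools 4.38, 2.19 and 2.89 CPM, a difference near 0 with an interval of -0.73 to 0.73 on the log2 scale. Chrna5 was at 5.58, 5.23 and 3.64 CPM against 4.66, 4.37 and 3.80 CPM, a log2 fold change of -0.17 ± 0.203. The groups overlapped for both genes. Chrna3 was at 0.155, 0.135 and 0.106 CPM in controls and 0.204, 0.144 and 0.195 CPM in *thia*, and was not tested.

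The muscle subunits overlapped in F3 throughout. Chrna1 was at 0.651, 0.916 and 0.637 CPM in controls and 0.795, 1.12 and 0.509 CPM in *thia*, a log2 fold change of 0.11 ± 0.344. Chrng was at 0.372, 0.350 and 0.797 CPM against 0.500, 0.489 and 0.494 CPM, with a log2 fold change of -0.05 ± 0.373. The high control pool of Chrng, replicate 3, was also the F3 pool with the largest skeletal muscle sum, 356 CPM against 138 to 257 CPM in the other 5 F3 pools. In that pool Chrna1 had its lowest F3 control level, 0.637 CPM. Chrnd was at 0.558, 0.377 and 0.717 CPM in controls and 1.20, 0.518 and 0.464 CPM in *thia* (log2 fold change 0.39 ± 0.450), and here the high *thia* pool, replicate 1, had a skeletal muscle sum of only 138 CPM. Chrnb1 was at 6.70, 5.63 and 5.50 CPM against 7.31, 5.84 and 4.76 CPM. Its log2 fold change was 0.00 ± 0.193, with an interval of -0.45 to 0.46.

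**Figure D4:**
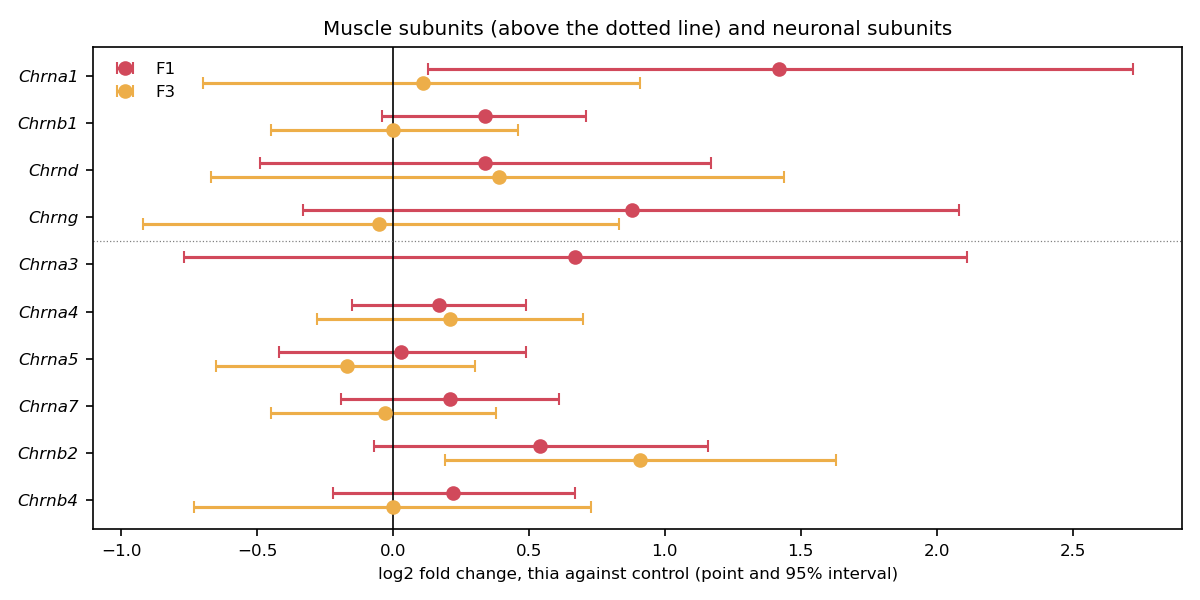
Log2 fold change of each subunit, *thia* against control, in F1 and F3, with the 95% interval of the edgeR fit; the dotted line parts the muscle subunits from the neuronal ones and Chrna3 was tested in F1 only. The intervals that lie wholly above 0 are those of Chrna1 in F1 (0.13 to 2.72) and Chrnb2 in F3 (0.19 to 1.63), and neither passed after adjustment.

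The difference between the generations was tested for each member as an interaction, the F3 effect minus the F1 effect over all 12 libraries. None passed an adjusted p of 0.1 (0 of 9, against 0.0051% of 19626 genes), and 0 of 9 had an unadjusted p under 0.05, where 14% of all genes did. DESeq2 called 634 genes over the whole table, but 0 of the 5 members to which it gave an adjusted p. The widest gap was that of Chrna1, at -1.30 ± 0.774 on the log2 scale (95% interval -2.98 to 0.38, adjusted p = 0.464), and it was -0.36 without F1 *thia* replicate 2. For Chrnb2, which was higher with *thia* in both generations, the difference was 0.39 ± 0.410 (interval -0.50 to 1.28). A distinct response of F1 and F3 was thus not detectable for any of the 9 subunits tested with 3 pools per group.

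The control groups of the generations were also compared, since the F1 and F3 testes were collected from different crosses. Here 42.3% of the 19626 genes passed an adjusted p of 0.1, but 0 of 9 members did, with 0 of 9 at an unadjusted p under 0.05. DESeq2 called 0 of 10, with 1 at an unadjusted p under 0.05. Chrna1 and Chrna4 had every F3 control pool above every F1 control pool, 2 of 9 members where 23.3% of all genes did. The log2 difference was 1.02 ± 0.574 for Chrna1 (adjusted p = 0.189) and 0.36 ± 0.179 for Chrna4 (adjusted p = 0.141). Chrna1 passed the threshold in the fit without F1 *thia* replicate 2 (adjusted p = 0.0733), and Chrna4 passed without F3 control replicate 1 (0.0997) or F3 *thia* replicate 2 (0.0956). Generation cannot be told apart from whatever else differed between these collections. The pools themselves differed in blood content, the sum of 5 erythroid markers being 2037 to 8490 CPM in F1 and 19230 to 38239 CPM in F3.

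Markers of the testis were present in every pool. Over the 12 libraries, Amh of Sertoli cells ranged from 171 to 928 CPM, Cyp17a1 of fetal Leydig cells from 882 to 3628 CPM and Ddx4 of germ cells from 56.3 to 247 CPM. Genes listed as markers of other tissues were detected too, among them Cyp21a1 of the adrenal list at 9.69 to 53.5 CPM. Which cells carried it was not tested.

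Some subunits varied together over the 12 libraries. These correlations describe pools that share 4 groups and a step between generations, and they carry no test. Among the 9 members other than Chrna3, Chrna7 and Chrnb4 had the highest correlation (Pearson r = 0.804 on log2 CPM, n = 12). The next was that of Chrnb1 and Chrna5, a muscle and a neuronal subunit, at r = 0.680. Chrna4 and Chrnb2, which form one receptor, had r = 0.620. For Chrna1 and Chrng r was 0.656, falling to 0.283 without F1 *thia* replicate 2. Chrna5 and Chrnb4, of the same gene cluster, had r = 0.317.

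Genes most like each member were searched among 19625 genes by the Pearson r of log2 CPM. For Chrna1 they were Lmod2 (r = 0.897), a thin-filament protein of striated muscle, and Cav3 (r = 0.888), the muscle caveolin. For Chrng they were LOC102634333 (r = 0.940) and Klhl31 (r = 0.936), a kelch protein of muscle, with 0.828 and 0.813 when F1 *thia* replicate 2 was left out. Both muscle subunits thus lay next to striated muscle genes, whereas Chrnb1 was nearest to Endou (r = 0.897) and 1700029J07Rik (r = 0.855), and Chrnd to H2-DMb1 (r = 0.914) and Actr1b (r = 0.866). Among neuronal subunits, Chrna7 was nearest to Celf3 (r = 0.930), an RNA-binding protein of neurons, and Rcor2 (r = 0.924), and Chrnb4 to Letm1 (r = 0.976) and Pou6f1 (r = 0.967). Chrna4 was nearest to Myo15b (r = 0.933) and Slc22a14 (r = 0.911), Chrna5 to Xlr (r = 0.879) and Gm31953 (r = 0.870), and Chrnb2 to Ak9 (r = 0.893) and Itgb4 (r = 0.869). These values rest on 12 points and were picked as the highest of the search.

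The remaining cholinergic genes were read from 5 lists with 38 genes. In F1, 0 of the 34 tested passed, 7 were higher and 0 lower at an unadjusted p under 0.05 (4.63% of all genes were higher at that level), and the median log2 fold change was 0.25 against 0.01 over all genes. In F3, 0 of 34 passed, 7 were higher and 1 lower at an unadjusted p under 0.05 (11% of all genes were higher), and the median was 0.30 against 0.00. In the difference, 0 of 35 passed, with 3 higher and 3 lower at an unadjusted p under 0.05, where 14% of all genes were at that level and 7.93% were higher.

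In F1 the smallest p-values belonged to Chrm1, Rapsn and Musk. Chrm1, a muscarinic receptor, which is a G-protein-coupled receptor of the same transmitter, was at 0.248, 0.213 and 0.185 CPM in controls and 0.449, 0.620 and 0.457 CPM in *thia* (log2 fold change 1.21 ± 0.339, adjusted p = 0.45 in edgeR). Rapsn, whose product anchors the muscle receptor beneath the membrane, was at 2.15, 1.72 and 1.85 CPM against 2.71, 4.04 and 2.94 CPM (0.77 ± 0.218, adjusted p = 0.455). Musk, the receptor kinase that organises the endplate, was at 0.331, 0.262 and 0.334 CPM against 0.505, 1.04 and 0.517 CPM (1.16 ± 0.381, adjusted p = 0.514). In all 3 the *thia* pools lay above the controls and replicate 2 was the highest. Without it, the log2 fold changes were 1.06 for Chrm1, 0.58 for Rapsn and 0.76 for Musk.

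In F3 the smallest p-values were those of Lynx1, Erbb2 and Utrn. Lynx1 encodes a membrane-anchored modulator that binds neuronal nicotinic receptors. Its level was 9.89, 12 and 10.5 CPM in F3 controls and 20.6, 19.0 and 23.5 CPM in F3 *thia*, so that the lowest *thia* pool was well above the highest control. The log2 fold change was 0.96 ± 0.127 (95% interval 0.66 to 1.26, adjusted p = 0.101 in edgeR), just short of the threshold, and over its 13 alternatives the adjusted p ran from 6.08e-08 to 0.364, with 6 past the threshold. In F1 the groups were at 8.69, 10.4 and 7.93 CPM and 9.82, 9.19 and 10.6 CPM. The difference between the generations was 0.83 ± 0.187 (adjusted p = 0.248 in edgeR and 0.0132 in DESeq2). Erbb2, a neuregulin receptor subunit, was at 60.2, 70.5 and 62.9 CPM in F3 controls and 91.9, 76.3 and 88.2 CPM in F3 *thia* (0.40 ± 0.0959, adjusted p = 0.109). Utrn, utrophin of the endplate, had a log2 fold change of 0.78 ± 0.2 in F3 (adjusted p = 0.117). Without F3 *thia* replicate 2, all 3 passed the threshold, with adjusted p-values of 0.0574 for Lynx1 and 0.0683 for Erbb2 and Utrn. Erbb2 and Utrn each passed in 4 of 13 alternatives, among them DESeq2 (0.0135 and 0.00412), the fit without a filter and that of all 12 libraries. In the difference between the generations, Utrn (adjusted p = 0.248) and Rapsn (-0.95 ± 0.275, adjusted p = 0.251) had the next smallest p-values of these lists after Lynx1, and DESeq2 called both (0.0173 and 0.0657).

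By list, the 4 tested of the 6 remaining nicotinic subunits had no member at an unadjusted p under 0.05 in F1, and nor had the 3 tested in F3. In the difference 2 of 4 did, Chrnb3 (-1.11 ± 0.439, adjusted p = 0.294 in edgeR) and Chrna9 (-1.67 ± 0.706, adjusted p = 0.321). Chrnb3, an accessory neuronal subunit, was at 0.290, 0.476 and 0.482 CPM in F1 controls and 0.618, 0.421 and 0.837 CPM in F1 *thia*, with overlap. In F3 it was at 0.713, 0.647 and 0.637 CPM in controls and 0.522, 0.518 and 0.389 CPM in *thia*, every *thia* pool being below every control (log2 fold change -0.50 ± 0.25, adjusted p = 0.304). The share of all genes with every *thia* pool below was not computed, while 13.4% in F3 had every one above. Chrna9 rests on few reads, with 1 to 19 per library. Chrne, the adult muscle subunit, was at 0.273 ± 0.123 CPM (SD, n = 3) in F1 controls and 0.376 ± 0.0957 CPM in F1 *thia*, and at 0.214 ± 0.0483 and 0.329 ± 0.0673 CPM in F3. Chrna6 was at the floor, with 0 to 8 reads per library. Of the 7 genes of acetylcholine synthesis, transport and breakdown, 6 of 6 tested had positive fold changes in F1 and 6 of 7 in F3, with 0 and 1 at an unadjusted p under 0.05. That one was Chat, the enzyme that makes acetylcholine, at 0.329 ± 0.0388 CPM in F3 controls and 0.511 ± 0.0152 CPM in F3 *thia* (log2 fold change 0.63 ± 0.260, adjusted p = 0.224). Of the 10 assembly factors and Ly6 modulators, 2 were higher in F1 and 2 higher and 1 lower in F3 at that level. The 10 junction organisers had 3 higher in F1 and 4 in F3, and the 5 muscarinic receptors 2 higher in F1 and 0 in F3, all 5 fold changes being positive in both. Over all genes, 4.63% were higher at that level in F1 and 11% in F3.

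Between the control groups, 16 of the 35 tested cholinergic genes passed an adjusted p of 0.1, 10 higher and 6 lower in F3, against 42.3% of all genes. Those with the smallest p were Utrn (log2 difference -1.52), Erbb3 (-1.40), Ly6h (0.58), Dok7 (-0.87), Chrm2 (1.14) and Lypd6b (1.23). Utrn and Dok7 encode proteins of the muscle endplate and Erbb3 a neuregulin receptor of Schwann cells. One nicotinic subunit outside the 10 members, Chrna9, was among the 16 (log2 difference 1.65 ± 0.534, adjusted p = 0.0323 in edgeR), with 5, 6 and 1 reads in F1 controls and 15, 8 and 6 in F3 controls.

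**Figure D5:**
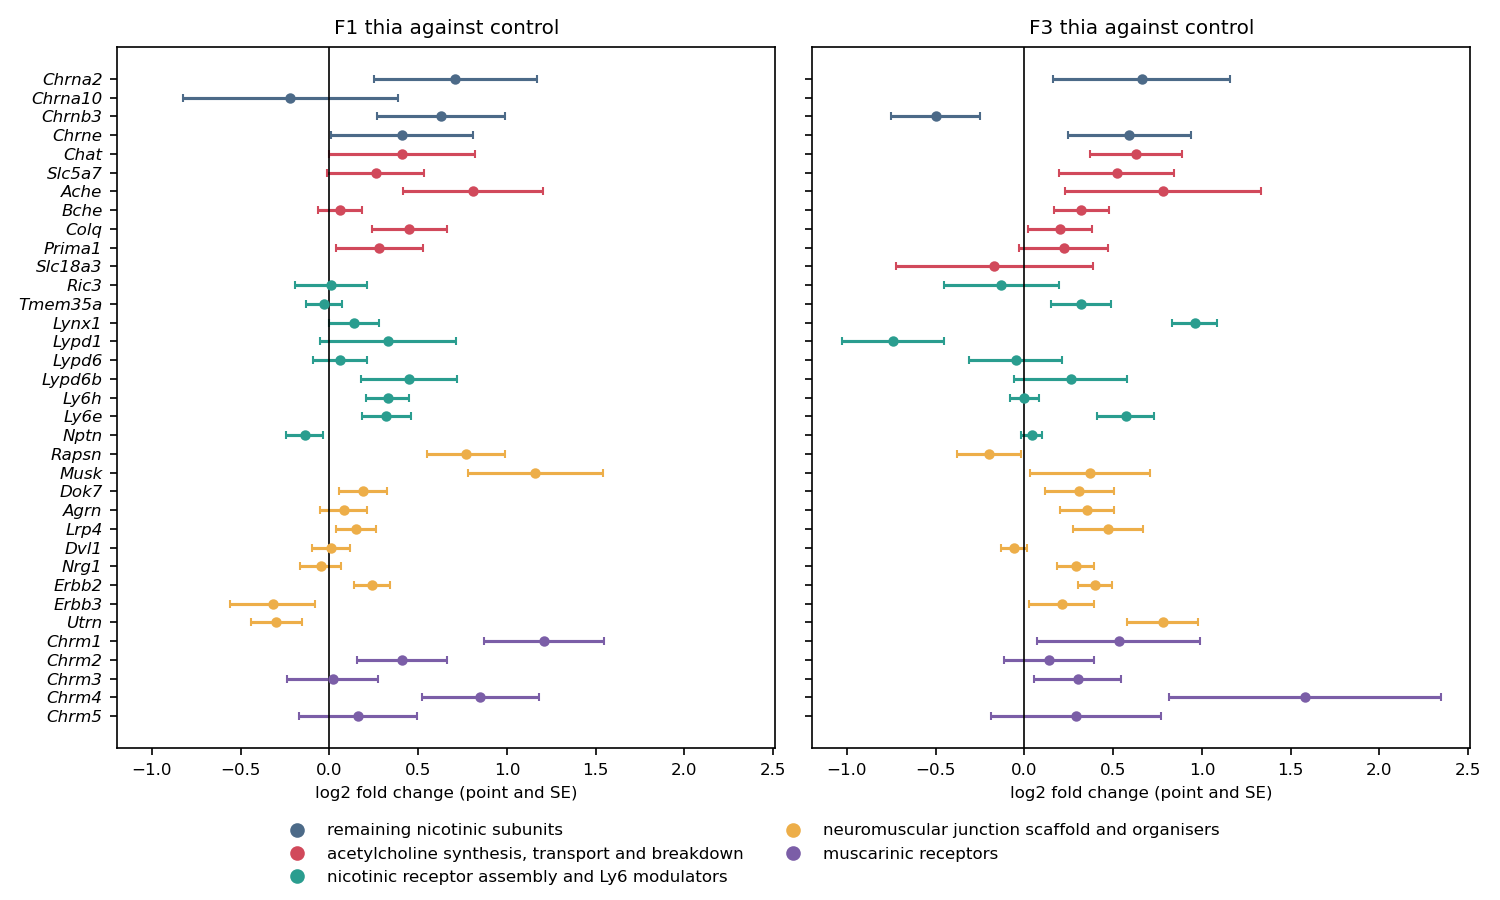
Log2 fold changes with SE for the tested genes of 5 cholinergic lists, *thia* against control, F1 at the left and F3 at the right, on a shared axis. Lynx1 in F3 has 0.96 ± 0.127, and Utrn lies below 0 in F1 and above it in F3.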

How the data were processed

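RNA-seq libraries from 12 pools of E15.5 testes (3 per group, each of 3 embryos) were analysed from the deposited gene counts. Per the paper's methods and the submitters' processing notes, the authors sequenced stranded paired-end reads of 100 bases, mapped them to mm10 with HISAT2 2.1.0 and counted them per refGene symbol with featureCounts (version not given in the sources used here). The deposited values are whole read counts, with no normalization.

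The pools were compared as labelled. The members and lists were chosen with earlier results of these data known. Counts were scaled by TMM in edgeR 4.0.16 (R 4.3.3), genes with low counts were removed by filterByExpr at a minimum count of 10, and the quasi-likelihood test was fitted over all genes, within F1 or F3, or over all 12 libraries for the interaction and the control comparison. P-values were adjusted by the Benjamini-Hochberg method over all genes tested. Thresholds were 0.15 in F1 and 0.1 otherwise. The SE is the log2 fold change divided by the root of the F statistic. CPM use TMM-scaled totals. RPKM divide CPM by the union of exons of GENCODE M21 transcripts linked to RefSeq, which may differ from the authors' gene models.

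From the cholinergic lists, the text names genes past the threshold, at most 6 by smallest p, or otherwise the 3 with the smallest p; Chrne, Chrna6, Chrna9, Chrnb3 and Chat were added after their values were seen. For each tested member it names the 2 genes of highest r. Of the list genes, 131 matched by symbol and 1, Tmem35a, by a synonym. Replicates were compared by chi-square (17.3 to 101 per degree of freedom) and none were identical. Alternatives were DESeq2 1.42.0, its size factors, 2 other filters, a replicate block, 1 fit of all libraries, an FDR of 0.05, leaving out each replicate and, added after seeing the data, edgeR's bias-adjusted deviances. The edgeR fit was tested on counts simulated with the same spread between replicates for every gene. That check does not show how the fit performs at the spread of these pools. Totals of 25081647 to 68996146 counts limit the precision of members with few reads.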

Additional observations from a re-analysis of the deposited data

Results flagged for a closer look

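Utrn, which encodes utrophin of the muscle endplate, was flagged because its log2 fold changes had opposite signs in the generations. Neither passed its threshold in edgeR. It was at 53.0, 56.4 and 53.4 CPM in F1 controls and at 49.4, 48.9 and 33.0 CPM in F1 *thia*. Every F1 *thia* pool was below every control, but only replicate 3 was far below. The share of all genes placed so in F1 was not computed. The log2 fold change in F1 was -0.30 (95% interval -0.62 to 0.02, adjusted p = 0.584 in edgeR). In F3 it was at 16.3, 23.7 and 16.9 CPM in controls and at 33.7, 25.2 and 38.9 CPM in *thia*. Every F3 *thia* pool was above every control, as in 13.4% of all genes. The difference of the effects was 1.10 on the log2 scale (SE 0.267), with an adjusted p of 0.248 in edgeR, and over 18 alternatives the adjusted p ran from 0.0173 to 0.521, with 1 past the threshold.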

How the results depend on the processing

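No alternative called a member in F1 or in the difference of the effects. In F3, Chrnb2 passed in 1 fit of all 12 libraries, and in the control comparison Chrna1 passed in 1 and Chrna4 in 2 of the fits that left out a replicate. Chrnb1 and Chrnb4 in F3, at 0.00 on the log2 scale, had no direction to keep. For the others, 219 of 222 member values under other settings neither took the opposite sign at 2 decimals nor crossed the threshold, nor did 289 of 318 with a replicate left out. The number of genes called over the whole table moved far more. In F1 it was 2, with 199 by DESeq2, 243 without a filter, 0 in the fit of all 12 libraries and 0 to 20 with a replicate left out (0 without control replicate 2, 20 without control replicate 1). In F3 it was 0, with 2288 by DESeq2, 569 without a filter, 333 among genes with 10 counts in every library, 1936 in the fit of all 12 libraries, 81 with bias-adjusted deviances and 0 to 1294 with a replicate left out (1294 without *thia* replicate 2). For the difference it was 1, with 634 by DESeq2 and 0 to 4 with a replicate left out. The cause was not tested. Between the controls it was 8300, and 6434 at an FDR of 0.05.

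Same-numbered replicates showed no common direction of deviation (r -0.0313, -0.0336 and 0.0206 in F1, 0.2295, -0.4225 and -0.2712 in F3). Replicates of unlike number in F3 had r from -0.4258 to 0.5145. Such few values, taken around the means of small groups, cannot decide whether the numbers pair the pools. A replicate block gave 3 genes called in F1, 0 in F3, 0 in the difference and 7713 between controls. With the block, the log2 fold change of Chrng in F3 was 0.01 and the difference for Chrnd was -0.08, both reversed in sign.

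With a replicate left out, small log2 fold changes took either sign. In F1, Chrng ranged from -0.04 to 1.26 and Chrna5 from -0.14 to 0.19. In F3, Chrna1 ranged from -0.19 to 0.37, Chrnd from -0.19 to 0.65, Chrng from -0.27 to 0.46, Chrna7 from -0.09 to 0.05, Chrnb1 from -0.18 to 0.14 and Chrnb4 from -0.32 to 0.19. In the difference, Chrnd ranged from -0.47 to 0.38, Chrng from -1.29 to 0.02 and Chrna4 from -0.11 to 0.20. Between controls, Chrnb1 ranged from -0.04 to 0.21, Chrnd from -0.15 to 0.44, Chrng from -0.08 to 0.63, Chrna5 from -0.14 to 0.20 and Chrnb2 from -0.09 to 0.30. Depth limits Chrna3 most, with 2 to 18 reads per library.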
